A study of Saccharomyces cerevisiae with 16 samples.

Results

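The genes described here encode the uptake of small peptides and the breakdown of glutathione in baker's yeast: the transporters *OPT1*, *OPT2* and *PTR2*, the repressor *CUP9*, and the glutathione-degrading enzymes *DUG1*, *DUG2* and *DUG3*. They are 7 of the 5449 genes measured, and were taken by gene symbol. The probe set of a symbol was chosen by its mean level over all arrays, and each of the 7 symbols had 1 probe set. The list was drawn up with earlier results of these data known, in which *OPT1* in the aerobic series and *OPT2* in both series stood out between low and high feed glucose. Those changes, and every difference between series that rests on the same *OPT1* and *OPT2* values, are therefore given as descriptions with no test, and counts of called genes that hold them are descriptions too.

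Yeast takes up peptides with transporters that use the proton gradient across the plasma membrane. Ptr2 carries dipeptides and tripeptides, and its gene is repressed by the homeodomain protein Cup9, which the ubiquitin ligase Ubr1 marks for degradation when dipeptides are present. Opt1, also known as Hgt1, carries somewhat longer peptides and is the high-affinity transporter of glutathione, the tripeptide of glutamate, cysteine and glycine that is the main low-molecular-weight thiol of the cell. Opt2 belongs to the same family, and its transport activity is less well defined. In the cytosol, glutathione can be opened by the complex of Dug2 and Dug3, which releases the glutamate, and Dug1 then cleaves the remaining dipeptide of cysteine and glycine. Imported peptides and glutathione can serve as sources of nitrogen and, in the case of glutathione, of sulfur.

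All 16 samples were of the haploid *S. cerevisiae* strain CEN.PK113-7D, grown on a mineral salts medium in which glucose limited growth at first. Feed glucose was then raised linearly until ammonia was the limiting nutrient, once with oxygen and once without, and 8 samples were taken over time in each of these 2 series. The aerobic samples were taken at 0, 4.1, 6.85, 9.6, 14.5, 27.25, 42.65 and 53.95 h, with feed glucose of 1, 5.51, 8.5, 11.56, 16.96, 30.97, 47.91 and 60.34 g/L. The anaerobic samples were taken at 0, 4.35, 10.38, 16.88, 26.52, 35.67, 42.85 and 50.85 h, with 1, 4.87, 10.31, 16.19, 24.86, 33.1, 39.56 and 46.75 g/L. Early means the 3 samples at the lowest feed glucose in a series, late the 3 at the highest and mid the 2 in between. No label names separate cultures for the samples, p-values therefore cover the spread between serial samples alone, and with 1 series for each condition the effects of oxygen and of the culture cannot be told apart. Values are log2 intensities, called levels below, and ± after a difference is the standard error from a limma fit over all 16 arrays. A gene is called where its Benjamini-Hochberg adjusted p over the 5213 genes tested is under 0.05.

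The median level of an array was 11.33 to 11.51 with oxygen and 10.78 to 10.97 without it, so levels between the series are also read against the median of all genes. The aerobic 9.6 h array stood apart, with a median correlation across genes of 0.870 with the other aerobic arrays, while the same median for each other array ran from 0.923 to 0.960. As a check on the labels, the mannoprotein gene *DAN1*, which is made without oxygen, was under 4 log2 units on all 8 aerobic arrays. Without oxygen it was at most 10.06 on the first 2 arrays and between 14.53 and 15.75 on the other 6. The cytochrome *c* gene *CYC1* was at 15.29 on the anaerobic 0 h array and at 9.28 on the last one. *DAL80*, *GAP1*, *MEP2* and *DAL5*, which cells express when good nitrogen sources run short, had their largest step between consecutive arrays at the same place, from 6.85 to 9.6 h with oxygen and from 35.67 to 42.85 h without it. Of the late anaerobic samples, the 35.67 h one thus lay before this step and the other 2 after it.

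All 7 genes passed the filter, which asked for 4 log2 units or more on 3 or more arrays, *OPT2* with 13 arrays and each of the others with 16. In the aerobic series the 3 transporter genes had far higher levels late than early, while the 3 *DUG* genes kept within a range of 1.01 log2 units over the whole series. Without oxygen *OPT2* was higher on the last 2 arrays than on the other 6, and the other 6 genes were not called between early and late. Among the early samples *OPT1* and *OPT2* were higher without oxygen than with it, and among the late samples *OPT1* was lower without oxygen. In bulk RNA, a lower level in every cell and a smaller share of cells that express a gene cannot be told apart.

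**Figure D1:**
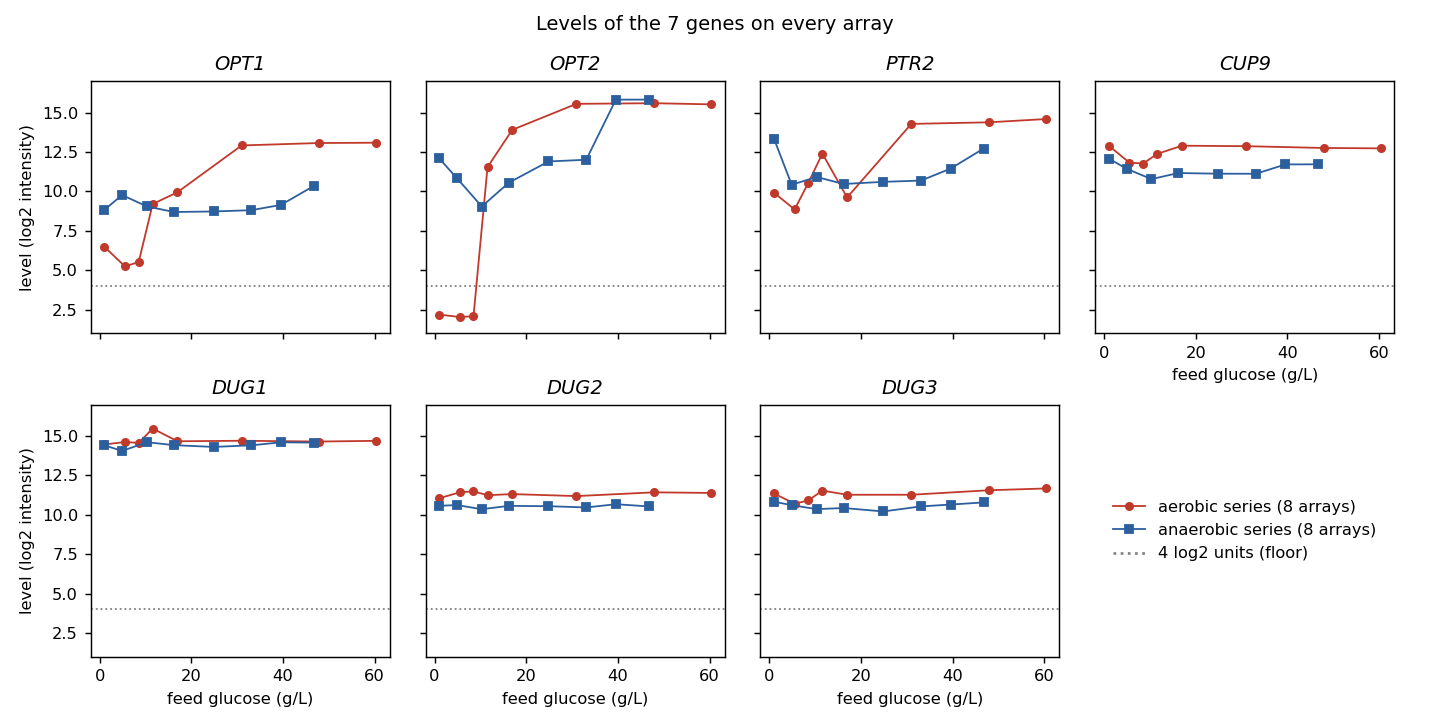
Level (log2 intensity) of each gene on every array against feed glucose (g/L), with 1 point per array, circles for the aerobic and squares for the anaerobic series, and a dotted line at 4 log2 units. *OPT2* lies under the line on the 3 early aerobic arrays and at 15.52 to 15.59 on the 3 late ones, while *DUG1*, *DUG2* and *DUG3* are nearly flat.

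*OPT2* had the widest range of the 7. Along the aerobic series its levels were 2.19, 2.03 and 2.08 early, 11.54 and 13.91 mid, and 15.55, 15.59 and 15.52 late. The early and late arrays did not overlap, and all 3 early ones lay under 4 log2 units, near 1.96, the lowest value of any probe set. Measured from 4, the late level was at least 11.56 log2 units above the early one. The step from 6.85 to 9.6 h took it from 2.08 to 11.54, and it gained further on the 14.5 h and 27.25 h arrays before levelling off.

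Along the anaerobic series *OPT2* stood at 12.10, 10.84 and 9.04 early, 10.55 and 11.90 mid, and 12.01, 15.82 and 15.82 late. It was thus well above 4 log2 units on every anaerobic array, lowest at 10.38 h, and its largest step, 3.81 log2 units, was the one from 35.67 to 42.85 h. Its late level exceeded its early level by 3.89 ± 1.00 log2 units, although the 35.67 h value lay below that of 0 h. With late redefined as the last 2 samples after the values had been seen, the difference was 5.16. The mean of the late aerobic arrays was 15.56 ± 0.04 (SD, n = 3), and the last 2 anaerobic arrays reached that level or passed it.

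*OPT1* went from 6.49, 5.24 and 5.52 on the early aerobic arrays through 9.20 and 9.95 on the mid ones to 12.91, 13.07 and 13.09 on the late ones. Early and late did not overlap, and the difference was 7.27 ± 0.42 log2 units. As for *OPT2*, its largest step was from 6.85 to 9.6 h, of 3.68 log2 units, and another 2.97 log2 units separated the 14.5 h from the 27.25 h array. Its anaerobic levels were 8.83, 9.77 and 9.05 early, 8.69 and 8.73 mid, and 8.81, 9.15 and 10.35 late. These overlapped, and late minus early was 0.22 ± 0.42 log2 units (limma adjusted p = 0.794, 95% interval -0.69 to 1.13). The highest anaerobic value, that of the last sample, was still 2.67 log2 units below the late aerobic mean.

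Ordered by group mean, *OPT1* was lowest in the early aerobic samples with 5.75 ± 0.66 (SD, n = 3). The 3 anaerobic groups and the mid aerobic one followed between 8.71 and 9.57, and the late aerobic samples were highest with 13.02 ± 0.10 (SD, n = 3). Of the neighbours in this order the middle 4 groups lay within 1 log2 unit of each other, with ranges that overlap for each pair except the mid anaerobic samples, which lay below the early and late anaerobic and mid aerobic ones. The order for *OPT2* began with the early aerobic samples too, at under 4 log2 units, and ended with the late aerobic ones.

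*PTR2* followed another course. Its aerobic levels were 9.92, 8.86 and 10.54 early, 12.40 and 9.62 mid, and 14.28, 14.38 and 14.59 late. The value at 14.5 h lay back among the early ones, and its largest step, 4.67 log2 units, came between 14.5 and 27.25 h, after the step of the nitrogen-scavenging genes. The value of 12.40 belongs to the 9.6 h array that stood apart. Late minus early *PTR2* rose by 4.64 ± 0.83 log2 units (limma adjusted p = 0.00443), with no overlap of the groups. The call was lost when the 4 samples of lowest feed glucose were set against the 4 of highest (2.79, adjusted p = 0.205) and for a slope on feed glucose (adjusted p = 0.0675).

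Among the anaerobic arrays *PTR2* was highest at the start, with 13.34 at 0 h, then 10.42 and 10.91 early, 10.47 and 10.61 mid, and 10.69, 11.45 and 12.72 late. Its course thus dipped and came back, the early and late groups overlapped, and late minus early was 0.06 ± 0.83 log2 units (limma adjusted p = 0.978, 95% interval -1.75 to 1.86). The difference between the changes of the series, anaerobic minus aerobic, was -4.59 ± 1.17 log2 units and did not pass the test (limma adjusted p = 0.078). It passed without the 3 arrays at 0 h in both series and at 9.6 h (-3.77, adjusted p = 0.0171), without either mid aerobic array alone (-4.59, adjusted p = 0.0386 and 0.0382) and after a second quantile normalization (-4.70, adjusted p = 0.0476).

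*CUP9*, the repressor gene of *PTR2*, had aerobic levels of 12.90, 11.82 and 11.77 early, 12.38 and 12.90 mid, and 12.87, 12.75 and 12.73 late. The 0 h array lay at the late level, which gave an overlap, and late minus early was 0.62 ± 0.34 log2 units (limma adjusted p = 0.236). Without the aerobic 0 h array the change was 0.99 and passed (adjusted p = 0.0335). Anaerobic levels were 12.09, 11.44 and 10.78 early, 11.17 and 11.12 mid, and 11.12, 11.71 and 11.72 late, a change of 0.08 ± 0.34 (limma adjusted p = 0.913). *CUP9* and *PTR2* both had their highest anaerobic value at 0 h. In the late aerobic samples, where *PTR2* was at its highest, *CUP9* lay within 0.17 log2 units of its own highest value of 12.90.

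Among the enzymes *DUG1* held aerobic levels of 14.47, 14.62 and 14.57 early, 15.48 and 14.67 mid, and 14.70, 14.65 and 14.70 late. Apart from the 9.6 h array, these lay between 14.47 and 14.70, and the late arrays were just above the early ones. Late minus early was 0.13 ± 0.18 (limma adjusted p = 0.66, 95% interval -0.27 to 0.53) in the aerobic series. Anaerobic levels lay between 14.06 and 14.61, with a change of 0.17 ± 0.18 (limma adjusted p = 0.623, 95% interval -0.23 to 0.57).

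*DUG2* ranged from 11.05 to 11.49 over the aerobic and from 10.36 to 10.68 over the anaerobic arrays. Its aerobic change was the smallest of the 7, 0.01 ± 0.14 (limma adjusted p = 0.96, 95% interval -0.28 to 0.31), and its anaerobic change was 0.04 ± 0.14 (limma adjusted p = 0.882, 95% interval -0.25 to 0.34). *DUG3*, whose product works in one complex with that of *DUG2*, had aerobic levels of 11.36, 10.71 and 10.91 early, 11.54 and 11.28 mid, and 11.28, 11.56 and 11.68 late. The difference of 0.51 ± 0.19 was not called (limma adjusted p = 0.0819), and without the aerobic 0 h array it was 0.69 and passed (adjusted p = 0.0125). Its anaerobic levels, 10.22 to 10.83, gave a change of 0.06 ± 0.19 (limma adjusted p = 0.889, 95% interval -0.35 to 0.46).

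By count, 3 of the 7 genes were called higher and 0 lower late in the aerobic series, where 11.2% of all genes tested were called higher and 4.28% lower. Without oxygen 1, *OPT2*, was called higher and 0 lower, against 3.7% and 2.34% of all genes and 6.04% in either direction. The difference between these changes, anaerobic minus aerobic, was called for 2 of the 7, *OPT1* and *OPT2*, against 1.82% of all genes, 0.844% higher and 0.978% lower. Since *OPT1* and *OPT2* are among these and were known beforehand, the counts are a description. Without the 3 arrays, that is those at 0 h and the aerobic one at 9.6 h, 5 of the 7 were called higher and 0 lower with oxygen, against 33.1% and 21.4% of all genes. The same fit called 1 of the 7 higher and 0 lower without oxygen, against 20.9% and 19.7%. The median change of the 7 was 0.62 log2 units in the aerobic and 0.08 in the anaerobic series, against 0.10 and 0.00277 over all genes. With oxygen 4 of the 7 had early and late ranges apart from each other, against 47.5% of all genes, and without oxygen 0 of the 7, against 29.3%.

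**Figure D2:**
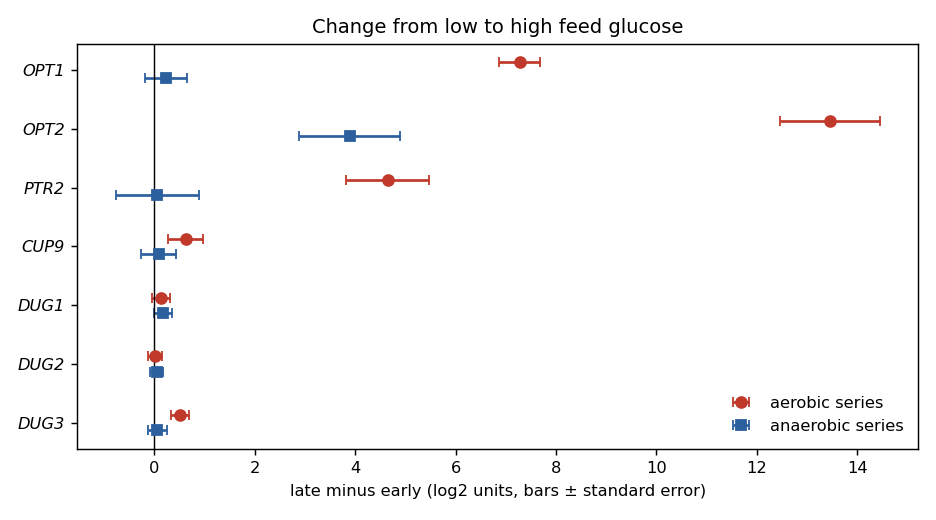
Late minus early difference in level (log2 units) of each gene in the aerobic (circles) and anaerobic (squares) series, with bars of 1 standard error from the limma fit, 3 against 3 arrays. *OPT1*, *OPT2* and *PTR2* lie far right of 0 in the aerobic series, *OPT2* alone does so in the anaerobic series, and its aerobic point is a fitted value from early levels under 4 log2 units.

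The course of the transporter genes was set beside that of the nitrogen-scavenging genes fixed as markers. *DAL80*, a GATA-type repressor gene of nitrogen catabolism, went from 3.26 to 14.71 between the aerobic 6.85 h and 9.6 h arrays and then stayed between 14.64 and 14.79. *DAL5*, which encodes a permease for allantoate that also carries dipeptides, went from 11.08 to 15.66 over the same step and stayed at 15.48 to 15.53. The marker genes had thus reached their plateau on the 9.6 h array, where *OPT2* and *OPT1* were still 4.01 and 3.83 log2 units below their late means and *PTR2* was 2.02 below. On the 14.5 h array *OPT2* and *OPT1* were 1.65 and 3.08 log2 units below and *PTR2* was 4.80 below. Each of these gaps rests on a single array, and that at 9.6 h stood apart from the others.

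Without oxygen *DAL80* went from 6.11 to 13.08 and *DAL5* from 10.21 to 14.39 between 35.67 and 42.85 h. *OPT2* went from 12.01 to 15.82 in that interval. *OPT1* went from 8.81 to 9.15 and *PTR2* from 10.69 to 11.45, both with a larger step in the following interval, to 10.35 and 12.72 at 50.85 h. Each of these steps rests on single arrays and was not tested. The largest step of *PTR2* in this series was downward, by 2.92 log2 units from 0 to 4.35 h.

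**Figure D3:**
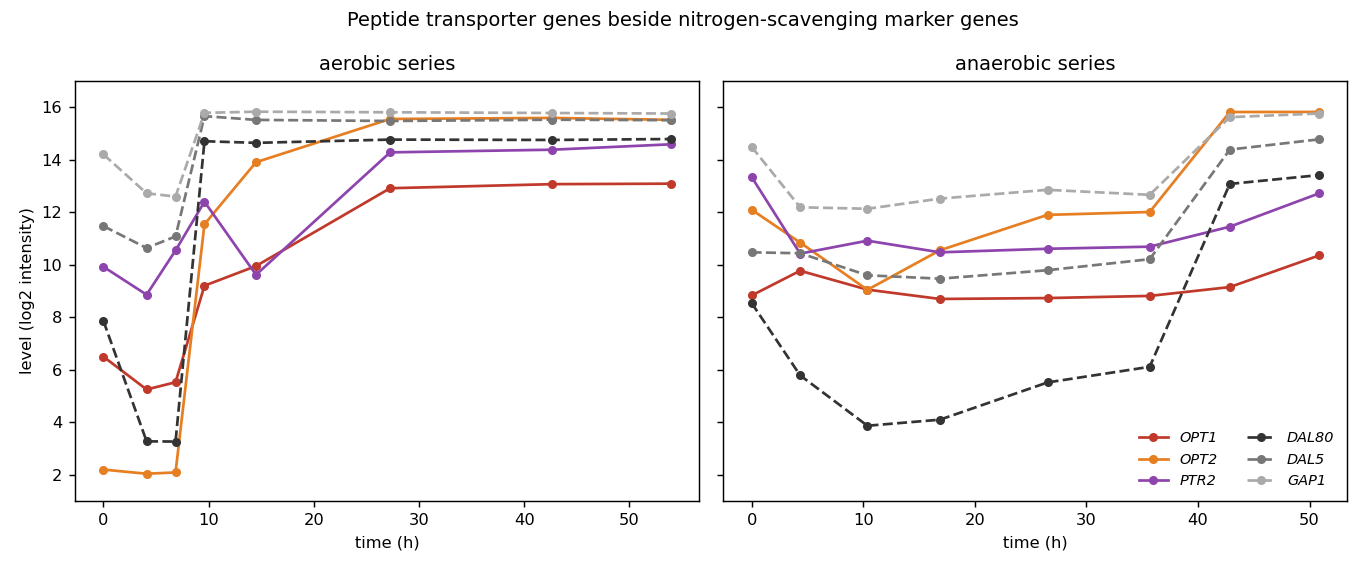
Level (log2 intensity) against time (h) in the aerobic (left) and anaerobic (right) series, 1 point per array, for *OPT1*, *OPT2* and *PTR2* (solid) and the marker genes *DAL80*, *DAL5* and *GAP1* (dashed). In the aerobic series the markers are at their plateau at 9.6 h and the transporter genes at 27.25 h, and in the anaerobic series *OPT2* steps up with the markers at 42.85 h.

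The next comparison set the anaerobic against the aerobic series, early with early and late with late. These groups follow feed glucose and do not match the step of the nitrogen-scavenging genes, which all 3 late aerobic arrays but only 2 of the 3 late anaerobic ones follow. Over all genes the median of this difference was -0.45 log2 units early and -0.57 late, an offset that follows the lower medians of the anaerobic arrays. The limma fit, with two-sided tests, called 3 of the 7 genes among the early samples, where 38.7% of all genes were called, and 5 of the 7 among the late samples, where 53.9% were. Of these, *OPT1* and *OPT2* early and *OPT1* late rest on values known beforehand. The late calls were all lower without oxygen, as were 49% of all genes, while 4.93% were higher. Samples of the series did not overlap for 3 of the 7 early, against 43.4% of all genes, and for 6 of the 7 late, against 79.7%.

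Among the early samples the 2 family members *OPT1* and *OPT2* were higher without oxygen. For *OPT1* the anaerobic mean was 9.21 against 5.75, a difference of 3.46 ± 0.42 log2 units, or 3.91 relative to the median of all genes. For *OPT2* the anaerobic mean of 10.66 ± 1.54 (SD, n = 3) stood against aerobic values all under 4, a difference of at least 6.66 log2 units. The early series did not overlap for either gene. The early anaerobic arrays were not alike in the genes used to check the labels. *CYC1* was at 15.29 and 14.37 on the first 2, against 14.68 on the aerobic 0 h array. *DAN1* was at most 10.06 on those 2 and at 14.53 on the 10.38 h array. *OPT2* fell over these 3 arrays, to 9.04 at 10.38 h, where *OPT1* was at 9.05. How far the early differences between the series depend on this course was not tested. Of all genes, 2.69% were called higher without oxygen among the early samples, and 36% lower. *PTR2*, at 11.56 against 9.77, was not called (1.79 ± 0.83, limma adjusted p = 0.104).

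Among the late samples *OPT1* was lower without oxygen, at 9.44 ± 0.81 against 13.02 ± 0.10 (SD, n = 3 each), a difference of -3.59 ± 0.42. *PTR2* was lower as well, at 11.62 ± 1.03 against 14.42 ± 0.16 (SD, n = 3 each), with -2.80 ± 0.83 (limma adjusted p = 0.0132). That call was lost in 4 of 25 alternatives, among them centring on array medians (-2.17, adjusted p = 0.0622) and leaving out the anaerobic 35.67 h array (-2.33, adjusted p = 0.0574). The late values of *OPT2* overlapped between the series, with a difference of -1.01 ± 1.00.

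The first 2 arrays after the step of the nitrogen-scavenging genes, at 9.6 and 14.5 h with oxygen and at 42.85 and 50.85 h without it, gave another picture. There *OPT1* had 9.20 and 9.95 with oxygen and 9.15 and 10.35 without it, and *PTR2* had 12.40 and 9.62 against 11.45 and 12.72, so that the series overlapped for both genes. *OPT2* had 11.54 and 13.91 with oxygen and 15.82 on both arrays without it. This pairing was chosen after the values had been seen and was not tested, and the arrays differ in feed glucose and in the time since the step.

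*DUG2* was lower without oxygen by 0.81 ± 0.14 log2 units early and 0.78 ± 0.14 late (limma adjusted p = 0.00144 and 0.000576), and *DUG3* by 0.84 ± 0.19 late (limma adjusted p = 0.00257). Relative to the median of all genes these differences were -0.36, -0.21 and -0.27, and none of them was called after a second quantile normalization or after centring on array medians. *CUP9* was lower late, with -1.27 ± 0.34 (limma adjusted p = 0.0083), or -0.70 relative to the median, and was likewise not called under either scaling. *DUG1* was not called at either phase (limma adjusted p = 0.434 early and 0.519 late), and its sign turned under both scalings.

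**Figure D4:**
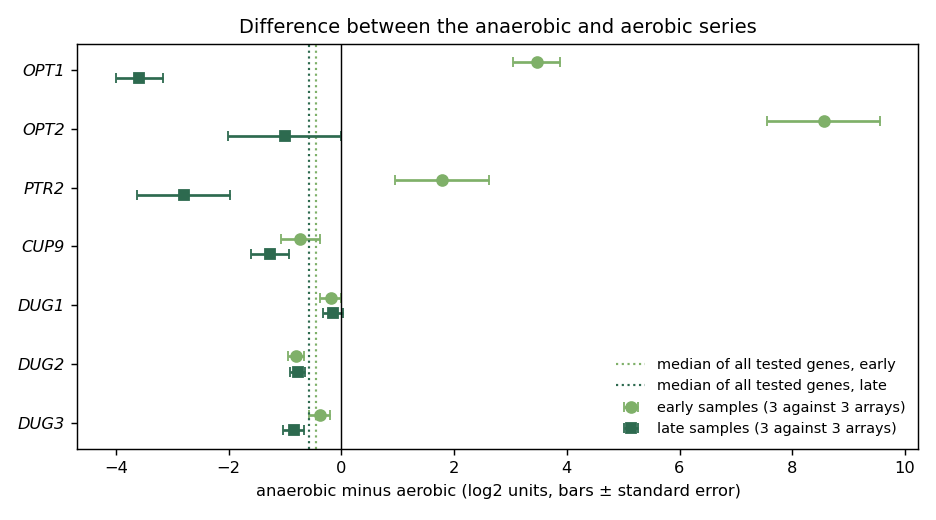
Anaerobic minus aerobic difference in level (log2 units) of each gene among the early (circles) and late (squares) samples, with bars of 1 standard error from the limma fit and dotted lines at the median of all tested genes. *OPT1*, *OPT2* and *PTR2* lie right of the early line and left of the late one, *OPT2* at -0.44 log2 units relative to the late one. The early *PTR2* difference was not called. The *DUG* genes lie within 0.42 log2 units of the lines, and *DUG3* changes side too.

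Other genes of these pathways were taken from 5 lists of 58 genes, of which 57 were tested. The lists too were chosen with earlier results of these data known, which limits what their counts and p-values can show. Of 3 other transporter genes, 2 rose late in the aerobic series, 0 fell and 1 was not called, with a median of 0.95 log2 units against 0.10 over all genes. Of all genes, 11.2% rose and 4.28% fell in that series, and 3.7% and 2.34% in the anaerobic one. *DAL5* rose by 4.44 ± 0.87 log2 units (limma adjusted p = 0.00713), and *YGL114W*, a gene of the same oligopeptide transporter family as *OPT1* and *OPT2*, by 0.80 ± 0.20 (limma adjusted p = 0.0214). The highest early level of *YGL114W* was 11.66, and its late levels were 11.96, 12.02 and 12.21, without overlap. Of the 3, 0 rose and 0 fell in the anaerobic series, where the value of *DAL5* was 2.96 ± 0.87 (limma adjusted p = 0.0691), and without the 3 arrays it passed with 3.11 ± 1.04 (limma adjusted p = 0.0369).

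Of 15 genes that act on peptide uptake, 4 rose late in the aerobic series, 0 fell and 11 were not called (11.2% and 4.28% of all genes), with a median of 0.46 log2 units. *SSY1*, the plasma membrane sensor of external amino acids that turns on *PTR2*, rose by 1.24 ± 0.29 (limma adjusted p = 0.0159), a call lost after a second quantile normalization (0.63, adjusted p = 0.123). *DAL81*, a transcription factor of the same signalling route, rose by 0.77 ± 0.15 (limma adjusted p = 0.00643). The other 2 were *PTR3*, the partner of Ssy1, and *UBR1*, the ligase gene that acts on Cup9. Of the 15, 0 rose and 0 fell in the anaerobic series, with a median of 0.14.

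Of 17 other glutathione genes tested, 3 rose late in the aerobic series, 1 fell and 13 were not called, and in the anaerobic series 0 rose, 0 fell and 17 were not called, with medians of 0.34 and 0.29 log2 units. These counts lie near the shares of all genes, 11.2% and 4.28% with oxygen and 3.7% and 2.34% without it. *ECM38*, the vacuolar gamma-glutamyl transpeptidase and thus another route of glutathione breakdown, rose by 1.86 ± 0.39 (limma adjusted p = 0.0096). Its aerobic levels were 12.59, 12.10 and 11.97 early, 14.66 and 14.09 mid, and 14.04, 14.05 and 14.15 late, so that it stood at its highest on the 9.6 h array. *GEX1*, a glutathione exchanger gene whose near-identical copy can share its probe set, so that the value is uncertain, rose by 1.92 ± 0.41 (limma adjusted p = 0.0114). *GCG1*, the cytosolic gamma-glutamylcyclotransferase that also opens glutathione, fell by 0.90 ± 0.26 (limma adjusted p = 0.0367). The synthesis genes *GSH1* and *GSH2* were not called, with 0.33 ± 0.22 and -0.11 ± 0.20 (limma adjusted p = 0.338 and 0.756).

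Of 13 peptidase and vacuolar protease genes, 3 rose late in the aerobic series, 1 fell and 9 were not called, and in the anaerobic series 2 rose, 0 fell and 11 were not called, with medians of 0.65 and 0.52 log2 units. The shares of all genes were again 11.2% and 4.28% with oxygen and 3.7% and 2.34% without it. *CPS1*, the vacuolar carboxypeptidase S, rose by 2.32 ± 0.53 (limma adjusted p = 0.014), and *APE1*, a vacuolar aminopeptidase, by 1.70 ± 0.49 in the aerobic and 1.96 ± 0.49 in the anaerobic series (limma adjusted p = 0.0389 and 0.0372). *AAP1*, an aminopeptidase gene, fell by 0.97 ± 0.24 in the aerobic series (limma adjusted p = 0.0218). Of 9 genes of sulfur regulation and uptake, 0 rose, 0 fell and 9 were not called in the aerobic series. Without oxygen *MUP1*, the high-affinity methionine permease, fell by 2.89 ± 0.49 (limma adjusted p = 0.00686), and 8 were not called. The medians of this list were 0.24 and -0.0045.

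The calls on these lists depended to differing degrees on the processing and on the arrays kept. Each of the 17 calls between early and late kept its sign in 27 of 27 alternatives and its call in 14 to 26 of them. Without the 3 arrays, 3 of the 3 transporter genes, 9 of the 15 uptake genes, 13 of the 17 glutathione genes, 10 of the 13 peptidase genes and 3 of the 9 sulfur genes were called higher late in the aerobic series, and 0, 0, 2, 1 and 1 lower, against 33.1% and 21.4% of all genes. In the anaerobic series the same fit called 1, 5, 6, 7 and 1 genes of these lists higher late, in the same order. It called 0, 0, 0, 0 and 1 lower, against 20.9% and 19.7% of all genes.

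Set between the series, 9 of the 17 glutathione genes were lower without oxygen and 0 higher among the early samples, and 11 lower and 0 higher among the late ones, where 36% of all genes were lower early and 49% late. The medians were -0.79 and -0.95 log2 units against -0.45 and -0.57 over all genes. *GTT1*, a glutathione transferase gene, and *GPX2*, a glutathione peroxidase gene, were lower early, with -2.07 ± 0.52 and -1.93 ± 0.26 (limma adjusted p = 0.00965 and 0.000391). *GRX2*, a glutaredoxin gene, and *ECM38* were lower late, with -2.11 ± 0.36 and -2.01 ± 0.39 (limma adjusted p = 0.000472 and 0.00111). Under either scaling 1 gene of the list was lower early, while late 6 were lower and 1 higher after the second quantile normalization, and 4 lower and 0 higher after centring. In the other lists, 3 of 3 transporter, 8 of 15 uptake, 4 of 13 peptidase and 7 of 9 sulfur genes were lower late, and 0 higher. Early, 0, 5, 1 and 3 were lower, and 0, 1, 0 and 0 higher. After centring 0, 1, 0 and 3 were lower late, and 0, 2, 3 and 1 higher.

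**Figure D5:**
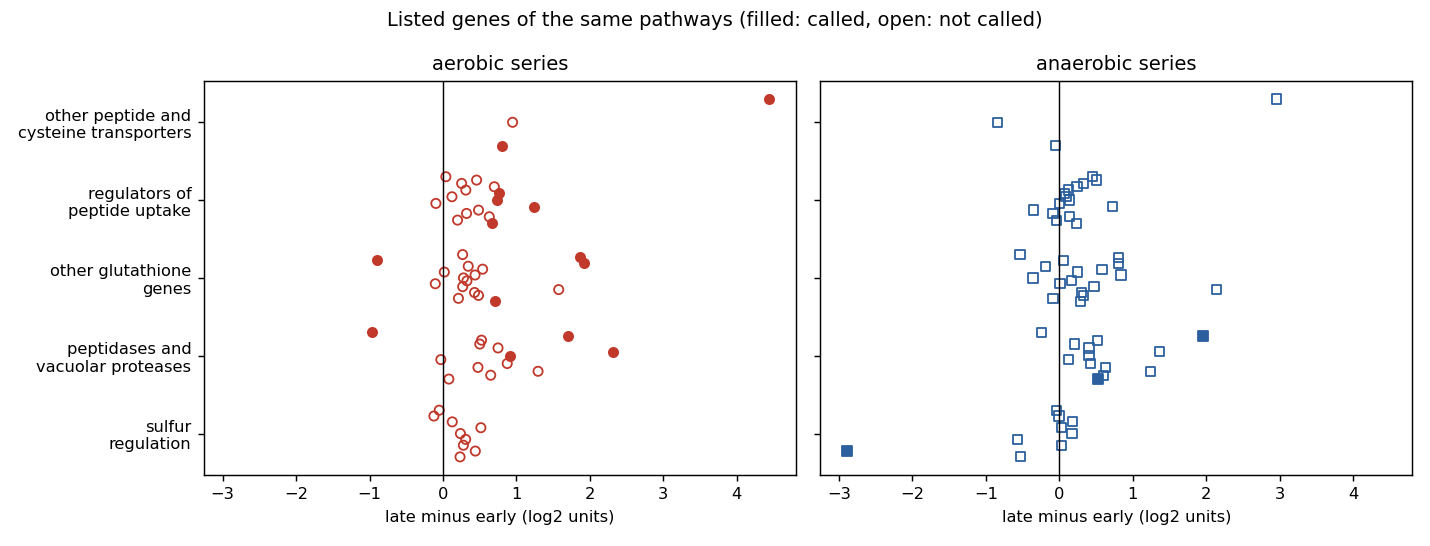
Late minus early difference in level (log2 units) of each tested gene of the 5 lists in the aerobic (left, circles) and anaerobic (right, squares) series, filled where called and open where not. Most points lie near 0, with *DAL5* at 4.44 in the aerobic series. In the anaerobic series *DAL5* lies at 2.96 (open) and *MUP1* at -2.89 (filled).

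Of the 14 protein-coding genes that neighbour the 7 in the reference annotation, 12 were tested and 2 were called in the aerobic series, against 15.5% of all genes. These were *TRE1* beside *CUP9*, with 0.36 ± 0.11 (limma adjusted p = 0.0462), and *YNL190W* beside *DUG3*, with 0.57 ± 0.13 (limma adjusted p = 0.0132). The tested neighbours of *OPT1* and *PTR2*, 2 each, and the 1 tested neighbour of *OPT2* were not called, with values for the side genes of *OPT1* of 2.26 ± 0.90 for *YJL213W* and -0.22 ± 0.33 for *PEX2*.

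Likeness of course was measured for each gene by the smaller of its Pearson correlations with another gene over the 8 aerobic and over the 8 anaerobic arrays, which share the series' slow course and are not independent. The closest genes were picked as the highest of all genes tested, so their values are high by selection. Aerobic correlations of *OPT2* include its 3 early levels under 4 log2 units, which have no order. Closest to *OPT2* was *AVT4*, a vacuolar amino acid exporter gene, with 0.958 in the aerobic and 0.971 in the anaerobic series, followed by *RPI1* and *RCY1*. Closest to *OPT1* was *STD1*, a regulator gene of glucose signalling, with 0.945 and 0.925, followed by *YOR296W* and *PHO91*. For *PTR2* the closest were *SKY1*, *PDR15* and *RDR1*, with 0.931 as the smaller value for the first. Closest to *CUP9* were *MET30* and *STP2*, a transcription factor gene that activates *PTR2*, both from the lists above, with smaller values of 0.965 and 0.963. *DUG1* was closest to *SRV2*, with 0.942, and *DUG3* to *MSN5*, with 0.902. *DUG2* had no such close match, with 0.650 for *RTT107*, and its correlation with *DUG3* was -0.31 over the aerobic and 0.39 over the anaerobic arrays. *OPT1* and *OPT2* correlated at 0.96 over the aerobic and 0.48 over the anaerobic arrays, so that their courses were alike mainly in the aerobic series.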

How the data were processed

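Total RNA of 16 samples was labelled with biotin and hybridized to single-channel Affymetrix arrays, per the labels' protocols. The deposited values are log2 intensities per probe set, which the authors made with GCRMA, per the submitters' processing notes. Version, options and the set of arrays normalized together: not given in the sources used here. Values ran from 1.96 to 16.75, from which the base of the logarithm was inferred. Precision is limited by the number of arrays.

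Of 5716 probe sets, 5498 had 1 gene symbol and 218 none. The probe set of highest mean stood for each of 5449 genes, and 5213 that reached 4 log2 units on 3 or more arrays were tested. Means of 6 groups were fitted with limma 3.58.1 in R 4.3.3 (eBayes with an intensity trend), and p-values were adjusted over all tested genes. The fit and its calls used values under 4 as they were. Where a group lay wholly under 4, its difference was also measured from 4 outside the fit, which makes it a bound. Members and lists were chosen with earlier results of these data known. All members are named, and from each list up to 2 called genes of largest rise and 2 of largest fall in a contrast; other list genes are named as not called or to complete a small count. On simulated data the model called 53% of changes of 1 log2 unit in the aerobic and 52% in the anaerobic series. For changes of 2 log2 units it called 86% and 87%. The shares were 29% and 77% for the difference of changes, 58% and 84% between the series early, and 57% and 86% late. The simulated noise was independent between arrays, which that of serial samples need not be. Alternatives concerned the filter, scaling, variance model, phase limits, a slope on feed glucose, probe sets and single arrays.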

Additional observations from a re-analysis of the deposited data

Results flagged for a closer look

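The change from early to late differed between the series for 3 of the genes described. *OPT1* had a difference of changes, anaerobic minus aerobic, of -7.05 ± 0.59 log2 units, and *OPT2* had a fitted value of -9.57 ± 1.42. Measured from 4 log2 units, the aerobic change of *OPT2* exceeded the anaerobic one by at least 7.67. Both are descriptions, since these genes were known for their late levels, and of all genes tested 1.82% passed for this difference. With late taken as the last 2 samples, the difference was -6.79 for *OPT1* and, measured from 4, at least 6.40 larger with oxygen for *OPT2*, a setting in which 1 of the 5213 genes passed. *MUP1*, the methionine permease gene, had -3.33 ± 0.70 (limma adjusted p = 0.0356), with levels of 11.94, 11.78 and 12.25 early and 12.29, 12.56 and 12.44 late with oxygen, and 12.39, 11.71 and 9.87 early and 8.42, 8.18 and 8.70 late without it.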

How the results depend on the processing

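Counts of called genes among the 7 and over all 5213 genes both changed with the processing, and not always together. Without the 3 arrays, calls in the anaerobic series went from 315 to 2120 over all genes and stayed at 1 among the 7. Late against early in the aerobic series, 5 of the 7 were called in place of 3, with *CUP9* and *DUG3* added, without the 3 arrays (2841 of all genes) and without the aerobic 0 h array alone (1643). With *PTR2* lost, 2 were called for the 4 lowest against the 4 highest samples (122) and for a slope on log2 feed glucose (142). In the anaerobic series 0 in place of 1 were called with each series fitted alone (120 of all genes), with the 4 lowest against the 4 highest samples (95) and with a slope on log2 feed glucose (299). The gene in question, *OPT2*, was called in 13 of 27 alternatives, 11 of the 14 losses being single arrays left out, aerobic and mid ones included. Its difference was 3.89 with each series alone and 3.08 to 5.16 without 1 array. This change of *OPT2* was known beforehand, so how often it was called is a description and no test. For the difference of changes, 0 in place of 2 were called with the 4 lowest against the 4 highest samples (10 of all genes), with the slope (123) and with late as the last 2 samples, an alternative added after the data were seen (1). With *PTR2* added, 3 were called after a second quantile normalization (136) and without the 3 arrays (509). Between the series, 5 in place of 3 were called early with the 4 lowest against the 4 highest (2608 of all genes) and 4 without the 3 arrays (2881). Early, 2 were called after a second quantile normalization (442) and after centring on array medians (721). Late, 2 in place of 5 were called after a second quantile normalization (1343) and 1 after centring on array medians (1515). With the 4 lowest against the 4 highest 4 were called late (2773), and 3 with late as the last 2 samples (2037). Leaving out 1 array gave 3 to 5 of the 7 for the aerobic and 0 to 1 for the anaerobic change, 2 to 3 for the difference of changes, 3 to 4 for the early and 4 to 5 for the late difference between series.

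No called value turned its sign, and the values that did turn were not called. For late minus early in the aerobic series these were *DUG2* with -0.087 after the second quantile normalization, -0.092 after centring and -0.13 without the 3 arrays, and *DUG1* with -0.10 for the 4 lowest against the 4 highest. In the anaerobic series *DUG3* had -0.013 for the 4 lowest against the 4 highest, and the slope was -0.21 for *PTR2*, -0.082 for *CUP9*, -0.0019 for *DUG2* and -0.034 for *DUG3*, in log2 units per doubling of feed glucose. Between the series *DUG1* had 0.050 early and 0.016 late after the second quantile normalization and 0.34 and 0.48 after centring, *DUG3* had 0.16 and 0.14 early under these, and *OPT2* had 0.26 late with late as the last 2 samples. Leaving out 1 array gave -0.13 to 0.10 for *DUG2* in the aerobic series. In the anaerobic series it gave -0.24 to 0.54 for *OPT1*, -0.51 to 0.95 for *PTR2*, -0.25 to 0.41 for *CUP9*, -0.037 to 0.10 for *DUG2* and -0.065 to 0.17 for *DUG3*, and for *OPT2* late between the series -1.64 to 0.26. The cause of these shifts was not tested.

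Over all genes the number called ran from 122 to 2841 for the aerobic change (807 in the fit reported), from 74 to 2120 for the anaerobic one (315), from 1 to 509 for the difference of changes (95), and from 442 to 2881 and 1343 to 3820 between the series early and late (2016 and 2809). Levels under 4 log2 units, as for *OPT2* in the early aerobic samples, have no order.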
